A study of Mus musculus with 3 samples.

Results

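Cholesterol synthesis was followed through 7 genes in single cells of the mouse epididymis, the duct that takes sperm from the testis and in which they become able to fertilise. The genes were Hmgcs1, Idi1, Fdft1, Sqle, Cyp51, Msmo1 and Insig1, taken by name from a matrix of 24335 genes, and all 7 were present in it. The mice were wild type, of the strain C57BL/6, untreated and 56 days old, and no genotype or treatment was compared. The duct was cut into its 3 regions, caput (head), corpus (body) and cauda (tail), and 1 single-cell RNA library was made of each, from digested tissue treated to lyse red blood cells. The comparisons made were between cell classes within a region and between regions within a class. The number of mice behind a library was not given in the sources used here. Since each region was a single library, no test was possible and no p-value is given. Every interval is a 95% interval for counting error only.

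Cells make cholesterol from acetyl-CoA along a chain of enzymes in the cytosol and endoplasmic reticulum. Transcription of the chain is driven mainly by the factor SREBP2, which the INSIG proteins hold back in the membrane when sterols are plentiful. In the epididymis, principal cells secrete the proteins that coat sperm, clear cells acidify the duct by proton pumps, and basal cells lie under both. Fibroblasts, smooth muscle, vessels and macrophages surround and enter this epithelium, and the lipid of the sperm membrane is remodelled along the duct.

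The genes stand at separate steps of the chain, and their positions are those of GENCODE M21 on the mouse build GRCm38. Hmgcs1 (chr13:119690379-119708260, plus strand) encodes the synthase at the entry of the chain. Idi1 (chr13:8885501-8892451, plus strand) encodes the isomerase of the isoprene unit. Fdft1 (chr14:63145150-63179578, minus strand) encodes squalene synthase, the first enzyme committed to sterols. Sqle (chr15:59315077-59331192, plus strand) encodes squalene epoxidase, a slow step after it. Cyp51 (chr5:4081145-4104746, minus strand) and Msmo1 (chr8:64718139-64733792, minus strand) encode the enzymes that strip methyl groups from lanosterol and its products. Insig1 (chr5:28071363-28078662, plus strand) encodes no enzyme but a sensor that retains SREBP and that is itself a target of it.

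Promoter windows of 250 bases before and 50 after the start were found in the RefSeq table (GRCm38.p6) for 5 of the 7 genes, Hmgcs1, Insig1, Cyp51, Idi1 and Msmo1. Each was searched on both strands for TCACNCCAC, a spelling of the sterol response element that SREBP binds, and for CCAAT, the box of its partner NF-Y, which reads ATTGG on the other strand. TCACNCCAC was found in 1 of the 5 windows, that of Hmgcs1, 137 bases before the RefSeq start, against 1.24% of all 32851 windows. It was in 0 of the 13 other genes of the pathway that had a window. CCAAT was found in all 5, against 37.4% of all windows, and also in a window of each of those other pathway genes but Acat2. The sterol motif with an A before it was in 0 of the 5 and in 0.234% of all. The 3 stretches below are shown because these genes parted in the results, Hmgcs1 in clear cells, Insig1 in macrophages and Cyp51 in the cauda. Each is 200 bases of sequence upstream of the gene with matches to these motifs in capitals.
Hmgcs1 (chr13:119690151-119690350, plus strand): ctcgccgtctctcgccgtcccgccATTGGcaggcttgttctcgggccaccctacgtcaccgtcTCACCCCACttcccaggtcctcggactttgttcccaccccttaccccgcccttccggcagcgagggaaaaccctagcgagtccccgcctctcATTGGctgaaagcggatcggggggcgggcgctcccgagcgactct
Insig1 (chr5:28071163-28071362, plus strand): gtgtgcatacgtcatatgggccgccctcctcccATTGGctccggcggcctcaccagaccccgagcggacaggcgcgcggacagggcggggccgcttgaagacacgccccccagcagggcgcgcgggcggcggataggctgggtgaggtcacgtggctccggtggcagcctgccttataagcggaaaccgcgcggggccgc
Cyp51 (chr5:4104747-4104946, minus strand): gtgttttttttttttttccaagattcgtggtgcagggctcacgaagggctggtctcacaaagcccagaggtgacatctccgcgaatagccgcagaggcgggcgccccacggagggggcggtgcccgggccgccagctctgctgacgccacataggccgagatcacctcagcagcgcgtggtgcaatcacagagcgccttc
Of the spellings searched, Hmgcs1 held the sterol motif and 2 CCAAT boxes in this stretch, and Insig1 held 1 box. Cyp51 held neither of these spellings, its 1 box lying nearer the start. Other spellings of the sterol element were not searched, in Cyp51 or the other genes. These matches describe the letters of the windows, and no binding was measured.

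The libraries held 4961 caput, 4959 corpus and 4925 cauda cells with 41500792, 21495211 and 18341476 UMIs (unique molecular identifiers, which count captured RNA molecules). Cells with at least 200 genes were kept, 4939, 4831 and 4785, with medians of 5077, 2654 and 2198 UMIs. Mitochondrial RNA exceeded 20% in 3.38% of the caput cells, and in 28.5% and 25.9% of those from corpus and cauda. Between 14 and 21 cell barcodes were shared by each pair of libraries. Cells were sorted by gates, each a range of summed marker RNA and not a cell type. Principal gates took 1801, 1642 and 728 cells of caput, corpus and cauda, clear gates 594, 356 and 91, basal gates 397, 150 and 58, fibroblast gates 200, 490 and 1234, and macrophage gates 141, 326 and 640. Cells past several gates were left out (729, 303 and 408), no other doublet removal was run, and 607, 1088 and 1401 cells met no gate. Near the threshold of the principal gate, within 25% of it, lay 266 caput cells below and 268 above, and for the caput clear gate 69 below and 66 above. In the median caput clear cell the clear markers, proton pump subunits and Foxi1, stood at 5890 CPM (the gene's UMIs scaled to a total of 1000000 UMIs), erythroid markers at 2104 CPM, fibroblast markers at 340 CPM, and the markers of the basal, smooth muscle, endothelial, macrophage and ciliated classes at 0. Principal-cell RNA was in every gate, at a median of 26134 CPM in caput clear cells against 173850 CPM in caput principal cells.

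Principal cells had the highest summed level of the 7 genes in every region. The sum was 582 CPM (interval 571 to 593) in caput, 466 (452 to 480) in corpus and 641 (615 to 669) in cauda principal cells. Clear cells followed at 379 (356 to 402), 350 (322 to 381) and 407 CPM (357 to 462). These 2 classes did not overlap in any region, and clear cells held 0.65, 0.75 and 0.63 of the principal level. Basal cells stood at 223 (208 to 239), 175 (150 to 202) and 133 CPM (100 to 173), or 0.38, 0.37 and 0.21 of it. Fibroblasts stood at 189 (162 to 220), 105 (91.2 to 121) and 71.6 CPM (64.6 to 79.1), or 0.33, 0.23 and 0.11 of it. Macrophages stood at 307 (264 to 357), 153 (129 to 180) and 102 CPM (90.0 to 116), or 0.53, 0.33 and 0.16 of it. So clear cells stood above basal cells and fibroblasts in all 3 regions. In the caput, macrophages lay above basal cells, with an interval that just met that of clear cells, smooth muscle (281 CPM, 212 to 365) overlapped macrophages, and basal, endothelial (219 CPM, 193 to 249) and fibroblast intervals overlapped each other. In the corpus, the intervals of basal, endothelial (173 CPM, 128 to 228), T or NK (163 CPM, 107 to 237) and macrophage cells overlapped. In the cauda, basal cells overlapped smooth muscle (105 CPM, 62.2 to 166), T or NK cells (184 CPM, 119 to 272) and macrophages, while T or NK cells lay above macrophages. A class with enough cells in the caput alone, the ciliated gate of 75 cells, held 535 CPM (478 to 598), which overlapped principal cells.

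**Figure D1:**
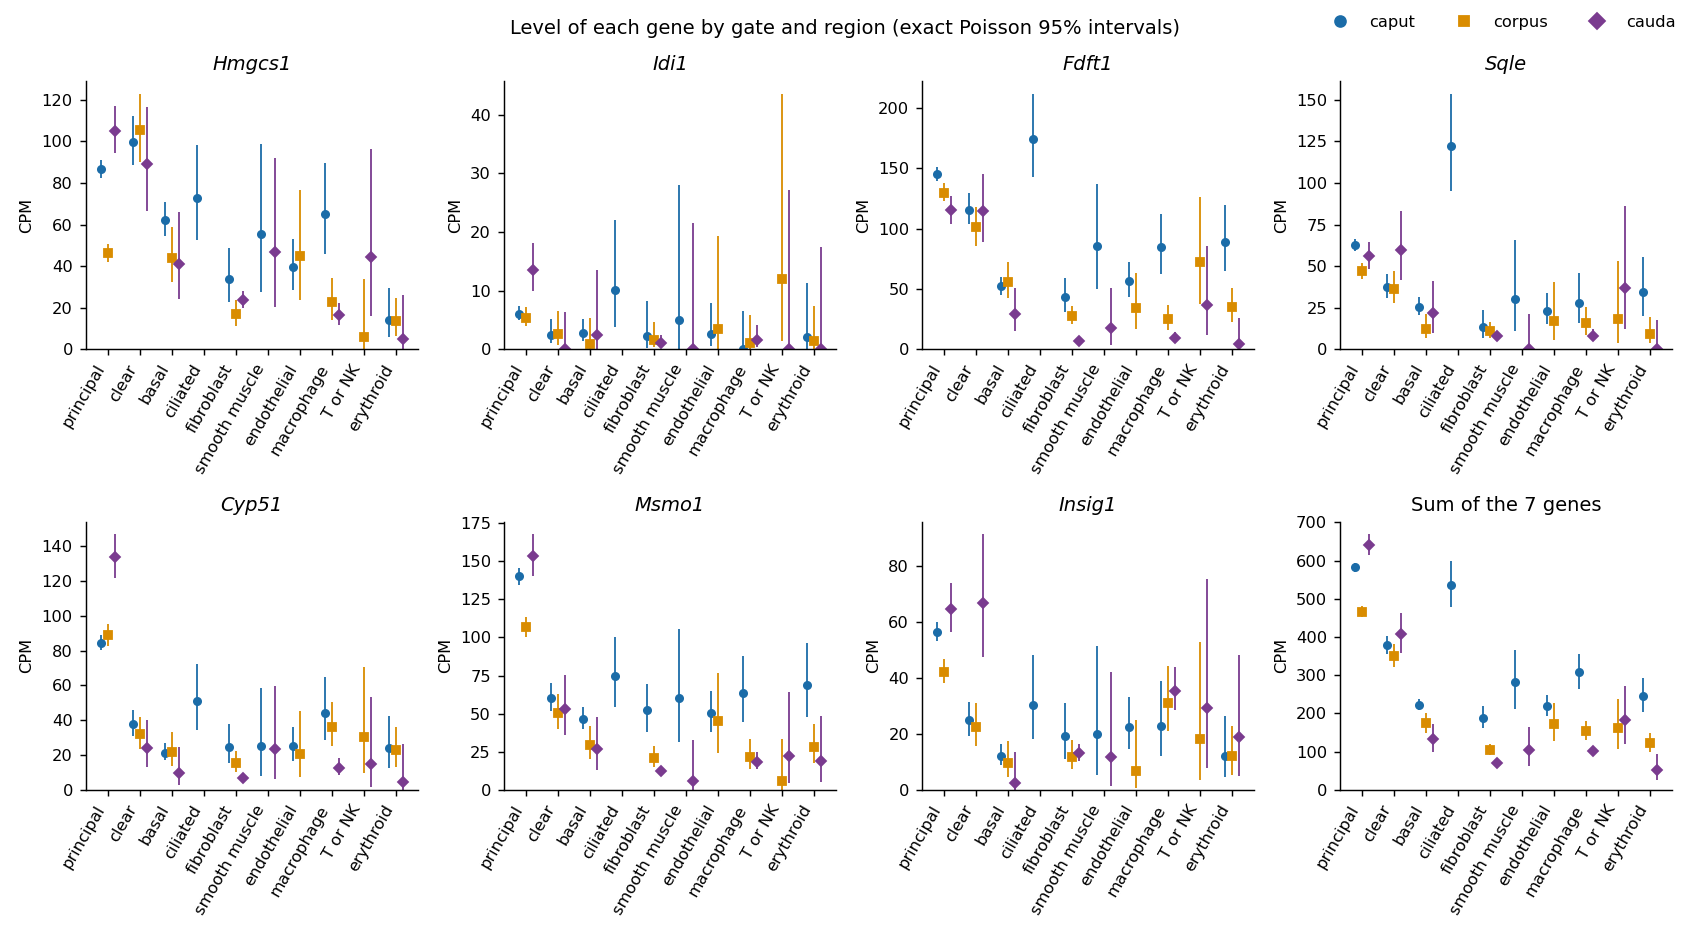
Level of each of the 7 genes and of their sum (y axis, CPM) in each gate with at least 50 cells (x axis), with 1 point per region and exact Poisson 95% intervals. Principal cells hold the highest sum in each region (466 to 641 CPM), clear cells hold Fdft1 at 0.78 to 0.996 of the principal level and corpus Hmgcs1 at 2.29 times it, and Sqle is highest in ciliated cells of the caput (122 CPM), though not relative to principal cells with TMM scaling.

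Principal-marker RNA was present in all the other gates, and its amount differed by region. Its part in the results was not tested. Principal markers in the other gates reached 9.87% to 34.4% of the principal level in the caput, 14.9% to 24.5% in the corpus and 4.68% to 8.77% in the cauda. Red blood cells, gated by globin RNA, lack the organelles of sterol synthesis and were taken as a reference. Their sum was 245 CPM (204 to 293) in the caput, 122 (98.1 to 150) in the corpus and 51.9 (25.9 to 92.8) in the cauda. That was 1.27 (1.05 to 1.52), 1.07 (0.860 to 1.31) and 0.99 (0.494 to 1.77) times what their share of principal markers would bring at the principal level. Fibroblasts of the caput lay close to the same line, at 1.17 times (0.999 to 1.36), an interval that reached 1. In the corpus and cauda, fibroblasts were at 1.52 (1.31 to 1.75) and 2.39 times (2.15 to 2.64) that line. Basal cells were at 1.80, 1.95 and 4.05 times, macrophages at 1.54, 1.91 and 2.81 times, and clear cells at 2.72 (2.56 to 2.89), 3.48 (3.20 to 3.79) and 11.4 times. Within the caput, ciliated cells (9.32 times, 8.32 to 10.4) and then clear cells had the highest multiples. Within the corpus and within the cauda, clear cells did. The principal markers of this line also set limits of the gates, so the multiples are descriptions. A few cells weighed on some gates, as an alternative chosen after seeing the data showed. Without the 10 caput red cells that lay outside the red-cell cluster the sum fell from 245 to 127 CPM, or from 1.27 to 0.787 times the line, and without the 35 such corpus basal cells from 175 to 117. Without 8 such corpus endothelial cells it fell from 173 to 106 CPM. For caput fibroblasts it fell from 189 to 146 CPM without 10 cells, at 1.02 times the line.

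**Figure D2:**
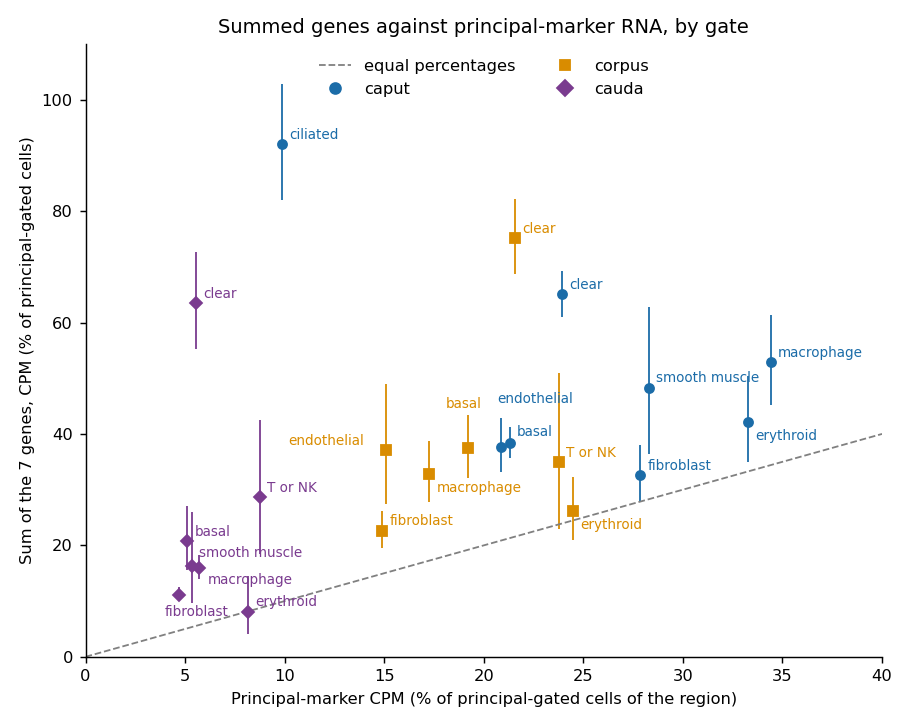
Sum of the 7 genes in each gate as a percent of principal cells of the same region (y axis, 95% intervals) against the level of principal markers there, in the same percent (x axis), for the 22 points other than principal cells. Red blood cells lie close to the dashed line of equal percentages, and clear cells (2.72, 3.48 and 11.4 times the line in caput, corpus and cauda) and ciliated cells (9.32 times) lie far above it.

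The share of cells with a UMI at equal depth was highest in principal cells of the caput, with clear cells above basal cells and fibroblasts and red cells lowest, while in the cauda the shares of clear and principal cells overlapped. With each cell thinned to 1000 UMIs, at least 1 UMI of the 7 genes was found in 41.3% of caput principal cells (39.0% to 43.6%, Clopper-Pearson), 30.3% of clear, 17.9% of basal and 14.5% of fibroblast cells. Red cells of the caput, which should lack the genes, held one in 12.7% (7.69% to 19.3%), an interval that covers the fibroblast and basal values. Globin took up much of the thinned depth of red cells, with erythroid markers at a median of 611940 CPM against 2104 CPM in caput clear cells. That lowers the red-cell share, so it is no background at equal depth for the other gates. Without thinning the shares were 89.2% of principal cells at a median of 6806 UMIs, 66.3% of clear cells at 3864 and 30.6% of red cells at 2611.5. In the cauda, 38.2% of thinned clear cells (28.1% to 49.1%) and 36.1% of thinned principal cells (32.0% to 40.3%) held one, with 2 clear and 193 principal cells too shallow to be thinned.

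The 7 genes were not evenly low in clear cells. Hmgcs1, at the entry of the chain, was near or above the principal level, and the demethylating enzymes Msmo1 and Cyp51 were below it. Hmgcs1 stood at 99.7 CPM (88.4 to 112) in caput, 105 (90.0 to 123) in corpus and 88.9 (66.4 to 117) in cauda clear cells. In principal cells it was 86.8, 46.1 and 105 CPM, so that the ratio of clear to principal was 1.15 (1.01 to 1.31), 2.29 (1.90 to 2.75) and 0.85 (0.620 to 1.13). The clear-cell intervals overlapped in the 3 regions, while the principal level of the corpus lay apart. The caput ratio fell below 1 under each of the 3 other scalings (0.74 to 0.97), while the corpus ratio stayed above 1 under all of them (1.51 to 2.15). The cauda ratio was above 1 with cells thinned (1.09) and with no ceiling on principal markers (1.16). Msmo1 stood at 60.6, 50.5 and 53.0 CPM in clear cells of the 3 regions. Its ratio to principal cells was 0.43 (0.368 to 0.505), 0.47 (0.371 to 0.596) and 0.35 (0.232 to 0.496). Cyp51 stood at 37.8, 32.0 and 23.9 CPM. Its ratio was 0.45 (0.363 to 0.543), 0.36 (0.265 to 0.479) and 0.18 (0.0971 to 0.304). Both were lower in clear cells in every region, and under all 12 alternative settings. For each UMI of Msmo1, clear cells held 1.65 (1.36 to 2.00), 2.09 (1.59 to 2.77) and 1.68 (1.06 to 2.71) UMIs of Hmgcs1 and principal cells 0.62 (0.581 to 0.661), 0.43 (0.384 to 0.486) and 0.68 (0.596 to 0.786), a balance that no change of scaling can move.

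The middle of the chain varied by gene and region. Fdft1 was 116, 101 and 115 CPM in clear cells, 0.80 (0.709 to 0.896), 0.78 (0.655 to 0.920) and 0.996 (0.756 to 1.29) of principal cells. Sqle was 37.4, 36.4 and 59.9 CPM, at ratios of 0.60 (0.483 to 0.728), 0.78 (0.578 to 1.03) and 1.07 (0.724 to 1.54), and the cauda interval covers 1. Idi1 gave few counts, 7, 4 and 0 UMIs in clear cells, and its ratio was 0.41 (0.162 to 0.878) in the caput, 0.47 (0.124 to 1.29) in the corpus and at most 0.486 in the cauda. Insig1, the sensor, was 24.9 and 22.4 CPM in caput and corpus clear cells, 0.44 (0.341 to 0.563) and 0.53 (0.363 to 0.749) of principal cells. In cauda clear cells it was 66.7 CPM and the ratio was 1.03 (0.715 to 1.46), against 0.63 with TMM scaling and 0.61 without the 12 gated cells outside the clear-cell cluster.

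A gene was counted as lower or higher where its CPM differed at least 2-fold, its interval excluded 1 and both classes together held at least 50 UMIs. In caput clear cells 4 of the 7 genes were lower (Msmo1, Cyp51, Insig1 and Idi1) and 0 higher, while over all genes 10.8% were lower and 21.7% higher. In the corpus 2 were lower (Msmo1 and Cyp51) and 1 higher (Hmgcs1), against 11.2% and 22.3% of all genes. In the cauda 2 were lower (the same pair) and 0 higher of the 6 with enough UMIs, Idi1 being short of them, against 13.1% and 30.1%. The median log2 ratio over all genes was 0.36, 0.33 and 0.50 in favour of clear cells, opposite in sign to the medians of -1.16, -0.92 and -0.12 of the members with enough UMIs. TMM scaling (edgeR's trimmed mean of ratios) moved every clear to principal ratio down by 0.63, 0.60 and 0.72 on the log2 scale, so that the medians over all genes turned to -0.27, -0.27 and -0.21. The balance of all called genes turned with it. With plain CPM 66.9%, 66.5% and 69.7% of them were higher in clear cells, against 31.6%, 30.5% and 31.4% with TMM and 39.9%, 39.2% and 37.7% with median-of-ratios scaling. Under either of those scalings 5, 4 and 2 of the 7 genes were lower and 0 higher, so Hmgcs1 of the corpus was no longer called. Clear cells also differed in condition. The caput medians were 3864 UMIs and 11.3% mitochondrial RNA in clear cells and 6806 and 4.54% in principal cells. Immediate early and heat shock genes, which are known to rise when tissue is digested, summed to 14180 CPM in caput clear and 3646 CPM in caput principal cells, with 8 of 8 at least 2-fold higher, and with 7 and 6 of 8 in corpus and cauda. Their part in the result was not tested.

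The rest of the chain was counted in clear cells by the same rule. Of 16 other pathway genes, 14, 14 and 13 had enough UMIs. In the caput 6 of them were lower and 0 higher, in the corpus 3 lower and 1 higher, and in the cauda 6 lower and 3 higher. Of all genes, 10.8%, 11.2% and 13.1% were lower and 21.7%, 22.3% and 30.1% higher. Tm7sf2, a sterol reductase, was 16.4, 23.0 and 18.8 CPM against 59.1, 68.6 and 82.6 in principal cells. Nsdhl, which works beside Msmo1 in removing the methyl groups, was 36.7, 26.2 and 27.4 CPM against 134, 49.5 and 84.7. Both were lower in clear cells in all 3 regions, with ratios of 0.23 to 0.34 for Tm7sf2 and 0.27 to 0.53 for Nsdhl. Acat2, the thiolase that starts the chain, was 34.9, 48.6 and 41.0 CPM against 93.3, 166 and 129. So in caput and corpus the gene of the step before Hmgcs1 was below the principal level where Hmgcs1 was not, though in the caput Hmgcs1 was below it too under the other scalings.

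Of the genes of efflux and esterification with enough UMIs, 3 of 4, 3 of 4 and 2 of 3 were higher in clear cells, against 21.7%, 22.3% and 30.1% of all genes, and 0 were lower. Of the regulators and uptake genes with enough UMIs, 2 of 7 were higher and 1 lower in the caput. In the corpus 1 of 7 was higher and 1 lower, and in the cauda 1 of 6 was higher and 0 lower. Of all genes, 21.7%, 22.3% and 30.1% were higher and 10.8%, 11.2% and 13.1% lower. Insig2, the other sensor gene, was 121, 83.7 and 108 CPM against 34.1, 21.4 and 14.1 in principal cells, ratios of 3.55 (3.10 to 4.06), 3.91 (3.10 to 4.91) and 7.63 (5.15 to 11.4). That is the reverse of Insig1 in the caput and corpus. Soat1, which esterifies cholesterol for storage, was 73.7, 114 and 219 CPM against 13.8, 45.6 and 5.11, ratios of 5.32, 2.51 and 42.9. Abcg1, a sterol exporter, was 45.2, 28.1 and 51.3 CPM against 12.8, 2.25 and 2.40. Its ratios were 3.54, 12.5 and 21.3, the last from fewer than 50 UMIs in both classes together. Over the 11 alternative settings run for these genes the ratio of Insig2 stayed between 2.30 and 8.41, and that of Soat1 between 1.66 and 65.2.

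**Figure D3:**
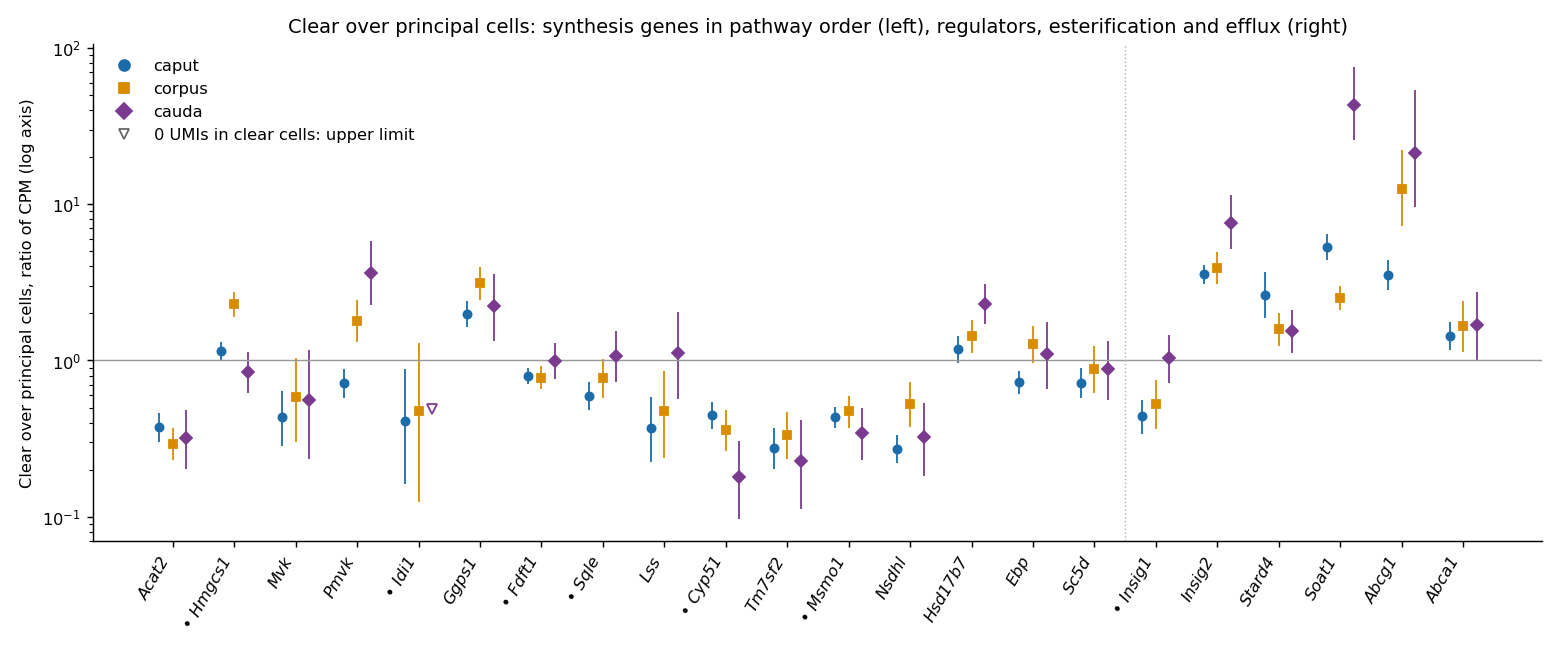
Ratio of CPM in clear cells to principal cells (y axis, log scale, 95% intervals) for synthesis genes in the order of the chain and, right of the dotted line, for sensors, a sterol carrier, esterification and efflux genes, in each region, with a bullet before the 7 genes. Hmgcs1 lies above 1 in caput and corpus (in the caput not under the other scalings) beside Acat2, which lies below it, and Cyp51, Tm7sf2, Msmo1 and Nsdhl form a low stretch, while Insig2 and Soat1 are above 1 in all regions.

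Basal cells were low in the 7 genes, again with Hmgcs1 high among them. Of the 7 genes, 6 were at least 2-fold lower in the caput, 5 of the 6 with enough UMIs in the corpus and 6 of 6 in the cauda, against 9.42%, 9.85% and 11.1% of all genes lower. None of the 7 was higher, against 20.8%, 20.6% and 26% of all genes. With TMM scaling the lower calls were 7, 5 and 6, and the share of all called genes that were higher in basal cells turned from 68.8%, 67.7% and 70.1% to 35.9%, 27.9% and 27.7%, and to 44.0%, 40.5% and 35.2% with median-of-ratios scaling. Hmgcs1 was 62.3, 44.1 and 41.1 CPM in basal cells, at ratios of 0.72 (0.621 to 0.826), 0.96 (0.690 to 1.3) and 0.39 (0.225 to 0.636), the corpus ratio rising above 1 with cells averaged or thinned (1.38 and 2.17). Insig1 was among the most lowered, at 12.3, 9.59 and 2.42 CPM, the last being 1 UMI. Its ratios were 0.22 (0.157 to 0.294), 0.23 (0.108 to 0.422) and 0.038 (0.000944 to 0.211). Fdft1 was 52.2, 55.6 and 29.0 CPM, 0.36, 0.43 and 0.25 of principal cells, and Cyp51 21.5, 22.1 and 9.68 CPM, 0.25, 0.25 and 0.072 of them. Against what the share of principal markers would bring, Insig1 was at 1.02 (0.741 to 1.37), 1.18 (0.567 to 2.17) and 0.73 times (0.0185 to 4.08). Cyp51 was at 1.19 (0.941 to 1.49), 1.29 (0.820 to 1.94) and 1.41 times (0.385 to 3.62). All of these intervals reach 1. Fdft1 was at 1.69, 2.23 and 4.93 times, and Hmgcs1 at 3.37, 4.98 and 7.64 times. Basal cells held 1.34 (1.09 to 1.64), 1.48 (0.921 to 2.42) and 1.55 (0.683 to 3.65) UMIs of Hmgcs1 for each of Msmo1, above principal cells in caput and corpus and overlapping them in the cauda. The basal sum depended on the gate, at 0.64 of principal cells in the cauda with no ceiling on principal markers, and 0.62 in the corpus with cells thinned. Dhcr7, the last reductase on the way to cholesterol, and Tm7sf2 were also low in the caput. Dhcr7 was 0.279 CPM, from 1 UMI, against 5.89, and Tm7sf2 was 17.0 CPM against 59.1. The digestion genes summed to 15140 CPM in caput basal cells, and their part was not tested.

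Fibroblasts, the stromal class with the most cells, held less of every one of the 7 genes in corpus and cauda. There 7 of 7 were at least 2-fold lower, and 6 of 7 in the caput, against 20.1%, 15.1% and 10.6% of all genes lower in corpus, cauda and caput. In caput, corpus and cauda 0 of the 7 were higher, against 15.1%, 19.5% and 29.3% of all genes. The share of all called genes that were higher in fibroblasts was 58.8% in the caput, 49.3% in the corpus and 66.1% in the cauda, and 23.4%, 33.3% and 58.9% with TMM scaling, under which all 7 genes were lower in each region. In the caput that share was 45.2% with median-of-ratios scaling. In cauda fibroblasts, at 4.68% of the principal-marker level, Cyp51 was 6.85 CPM (4.82 to 9.44), 0.051 (0.0356 to 0.0717) of principal cells, and Fdft1 6.66 CPM (4.67 to 9.22), 0.058 (0.0399 to 0.0816). Hmgcs1 at 23.7 CPM (19.8 to 28.2) and Insig1 at 13.1 CPM (10.3 to 16.6) were lowered less, to 0.23 (0.182 to 0.277) and 0.20 (0.153 to 0.267). With clusters in place of gates the cauda sum was 0.18 of principal cells and not 0.11. At the principal level, that share of principal markers alone would bring 6.25 CPM of Cyp51 and 5.38 CPM of Fdft1, so the measured levels were 1.09 (0.771 to 1.51) and 1.24 times it (0.867 to 1.71), intervals that reach 1. Hmgcs1 was 4.82 (4.02 to 5.73) and Insig1 4.35 times it (3.40 to 5.49). Caput fibroblasts held 34.0 CPM of Hmgcs1, 43.1 of Fdft1, 25.0 of Cyp51 and 19.3 of Insig1, but at 27.8% of the principal-marker level. Smooth muscle gates held 51 caput and 53 cauda cells, and in the cauda Msmo1 gave 1 UMI and Sqle and Idi1 gave 0.

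Macrophages of the cauda held relatively more Insig1 than the enzymes. In the cauda Insig1 was 35.5 CPM (28.4 to 43.8), 0.55 (0.423 to 0.709) of the 64.6 CPM of principal cells. The other 6 genes had ratios between 0.083 (Fdft1, 0.0517 to 0.126) and 0.16 (Hmgcs1, 0.110 to 0.218). Insig1 stood apart from all 6, since no other interval reached its lower limit. Relative to what the share of principal markers would bring, Insig1 was at 9.68 (7.75 to 11.96) and Fdft1 at 1.45 times (0.922 to 2.18), an interval that reached 1. In the corpus it was 31.0 CPM (20.9 to 44.3), a ratio of 0.73 (0.488 to 1.07), beside 0.19 (0.122 to 0.286) for Fdft1, 0.20 (0.126 to 0.313) for Msmo1 and 0.41 (0.282 to 0.572) for Cyp51. The intervals of Cyp51, Hmgcs1, Sqle and Idi1 overlapped that of Insig1, Idi1 resting on 1 UMI in macrophages. In the caput, where macrophage gates carried 34.4% of the principal-marker level, it was 22.8 CPM, 0.40 (0.214 to 0.694), and did not stand apart. Counted by the 2-fold rule, 3 of 7 genes were lower in the caput, and 5 of 6 in corpus and in cauda, against 5.45%, 20.1% and 16.7% of all genes lower, and 0 were higher, against 14%, 18.4% and 30.7%. With TMM scaling 6, 5 and 6 were lower, and the share of all called genes that were higher in macrophages moved from 71.9%, 47.8% and 64.8% to 29.0%, 34.1% and 53.9%. In the caput it was 56.0% with median-of-ratios scaling, under which 5 were lower. Cauda macrophages in the 122 and 358 cells of a pair of clusters, one with Ccr2 and H2-Ab1 among its leading genes and one with Mrc1 and Pf4, held 33.8 and 32.8 CPM of Insig1.

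Export genes were high in macrophages too. Abca1, the exporter that loads lipoproteins, was 119, 124 and 202 CPM against 29.2, 14.5 and 22.2 in principal cells. Abcg1 was 141, 79.7 and 54.5 CPM against 12.8, 2.25 and 2.40. Each ratio for these genes was above 4, and that of Abca1 stayed above 2.7 under every alternative setting. Insig2 was 23.1 CPM in cauda macrophages against 14.1 in principal cells. The digestion genes were 22059 CPM in cauda macrophages against 4599 CPM in principal cells, 8 of 8 higher against 30.7% of all genes, and their part was not tested.

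Ciliated cells, gated by Foxj1 and other cilium genes, held Sqle near or above the principal level of the caput and 3 other genes below it. The level of Fdft1 depended on the cells taken and on the scaling. Sqle was 122 CPM (95.4 to 154) against 62.8 (59.2 to 66.6) in principal cells, a ratio of 1.94 (1.51 to 2.47) that was 1.51 with median-of-ratios scaling and 0.959 with TMM scaling. Fdft1 was 174 CPM (142 to 212) against 145, a ratio of 1.20 (0.978 to 1.46, and 0.594 with TMM scaling), and Msmo1, Cyp51 and Insig1 were below principal cells, at ratios of 0.53 (0.386 to 0.717), 0.60 (0.404 to 0.861) and 0.54 (0.318 to 0.857). Of the 75 cells, 11 fell in a cluster led by Ldhc, a gene of sperm-forming cells. Without them Sqle was 133 CPM and the ratio 2.12 (1.62 to 2.74), past the 2-fold rule. Fdft1 kept 53 of its 103 UMIs and was 114 CPM, a ratio of 0.79 (0.587 to 1.03). The interval of Insig1 covered 1 (0.65, 0.375 to 1.04). With all 75 cells, 0 of the 7 genes were called higher and 0 lower, against 27.5% and 6.58% of all genes. The share of all called genes that were higher was 80.7%, and 29.9% with TMM and 64.9% with median-of-ratios scaling, under which 4 and 3 of the 7 genes were lower. Stard4, a carrier of free sterol, was 30.5 CPM against 7.01, and Me1, which makes NADPH for lipid synthesis, 67.8 against 2.19.

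Between regions, principal cells changed gene by gene. From caput to corpus the sum fell, at a caput to corpus ratio of 1.25 (1.20 to 1.29), and the corpus to cauda ratio was 0.73 (0.689 to 0.766). The caput to cauda ratio of the sum was 0.91 (0.866 to 0.951) with UMIs pooled, but 1.07 when cells were averaged and 1.11 with cells thinned to 1000 UMIs, so its direction depended on how cells were weighted. Hmgcs1 had the widest swing of the well-counted genes, 86.8 CPM (82.5 to 91.2) in caput, 46.1 (41.8 to 50.8) in corpus and 105 (94.4 to 117) in cauda. Its caput to corpus ratio was 1.88 (1.69 to 2.10) and its corpus to cauda ratio 0.44 (0.379 to 0.507). Its caput to cauda ratio was 0.825, and 1.09 when cells were averaged and 1.07 with cells thinned. Cyp51 moved otherwise, with 84.7 CPM (80.4 to 89.0) in caput, 88.8 (82.8 to 95.3) in corpus and 134 (122 to 147) in cauda. It did not differ beyond counting error between caput and corpus (0.95, 0.874 to 1.04, and 0.896 to 1.3 over the alternatives) and was higher in the cauda, at a caput to cauda ratio of 0.63 (0.569 to 0.705) that stayed under 1 in all 12 alternative settings (0.555 to 0.958). Idi1 followed it at a lower level, 6.05 (4.97 to 7.31), 5.41 (3.99 to 7.18) and 13.5 CPM (9.86 to 18.1). Fdft1 ran the other way, from 145 (140 to 151) through 130 (122 to 138) to 115 CPM (104 to 127). The level intervals of corpus and cauda overlapped, while their ratio was 1.13 (1.004 to 1.27), an interval that just excluded 1.

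Msmo1 and Insig1 were lowest in the corpus, as Hmgcs1 was. Msmo1 was 140 CPM (135 to 146), 107 (100 to 114) and 154 (140 to 167), and Insig1 56.5 (53.1 to 60.1), 42.3 (38.1 to 46.8) and 64.6 (56.2 to 73.8). Sqle was 62.8 (59.2 to 66.6), 46.9 (42.5 to 51.6) and 55.9 CPM (48.1 to 64.5), the last overlapping both others. Few of these differences reached 2-fold. Between caput and corpus 0 of 7 genes did in either direction, against 15.1% of all genes higher and 14.2% lower in the caput. Between caput and cauda 1 was lower in the caput (Idi1) and 0 higher, against 15.4% and 19.5%. Between corpus and cauda 2 were lower in the corpus (Hmgcs1 and Idi1) and 0 higher, against 7.63% and 9.90%. Principal cells of the 3 libraries also differed in depth, at medians of 6806, 2985.5 and 1958 UMIs, and in mitochondrial RNA, at medians of 4.54%, 15.5% and 17.1%. Mitochondrial UMIs are part of the total behind CPM, and their part in these differences was not tested. Region and library cannot be told apart.

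Some other genes of sterol handling differed by more than 2-fold between regions in principal cells. Stard4 was 7.01 CPM in caput, 36.0 in corpus and 57.7 in cauda principal cells, a caput to cauda ratio of 0.12 (0.105 to 0.168 over the alternative settings). Nsdhl was 134, 49.5 and 84.7 CPM and Pmvk, a kinase of the mevalonate part, 50.7, 20.3 and 15.0 CPM. Ebp, the sterol isomerase, was 75.8, 35.1 and 32.7 CPM. Elovl6, which lengthens fatty acids and also answers to SREBP, was 433, 103 and 106 CPM. Of the 16 other pathway genes, 3 were at least 2-fold higher in caput than corpus (Ebp, Nsdhl and Pmvk) and 0 lower, and against cauda 2 were higher (Ebp and Pmvk) and 3 lower (Dhcr7, Lbr and Mvd), of 14 with enough UMIs. Of all genes 15.1% were higher and 14.2% lower in the caput than in the corpus, and 19.5% and 15.4% than in the cauda. Soat1 was 13.8, 45.6 and 5.11 CPM, highest in the corpus, where Hmgcs1 was lowest.

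Within a region the 7 genes also varied among groups of principal cells, found by clustering without them or the other pathway genes. In the caput the sum ran from 638 CPM (620 to 655) in the group led by Tecta and Teddm2, through 562 (533 to 591) in that led by Lypd8 and 554 (531 to 577) in that led by Defb47, to 469 CPM (441 to 498) in that led by Ntsr2 and Mbnl3, which also had Lcn5 and Rnase13. Msmo1 was 168 CPM in the Tecta group and 95.7 in the Ntsr2 group, while Hmgcs1 was highest in the Lypd8 group, at 111 CPM against 85.9 and 68.8. In the corpus the group led by Ltf and Mep1a had 570 CPM (529 to 613), with 134 CPM of Cyp51. The group led by Defb22 had 485 CPM (466 to 505) with 93.6 CPM of Cyp51, and the Spint4 group 459 (417 to 503) with 68.3. In the cauda 565 of the 728 cells formed 1 group with Smpx and Slc7a15 among its leading genes, at 656 CPM (628 to 686). Groups rich in mitochondrial RNA were lowest in their regions, 233 CPM (163 to 323) in the corpus and 344 (245 to 471) in the cauda, at median mitochondrial shares of 43.1% and 39.3%. The total behind CPM includes mitochondrial UMIs, so a high mitochondrial share by itself lowers the CPM of other genes. How much of these low sums came from it was not tested. The corpus interval met that of the group led by Gm10800 and Nrgn, at 328 CPM (290 to 369). It also met that of the group led by Spag11a, at 349 CPM (298 to 406), whose median mitochondrial share was only 11.1%. Cells led by Cenpf, a gene of dividing cells, had 603 CPM (546 to 665).

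**Figure D4:**
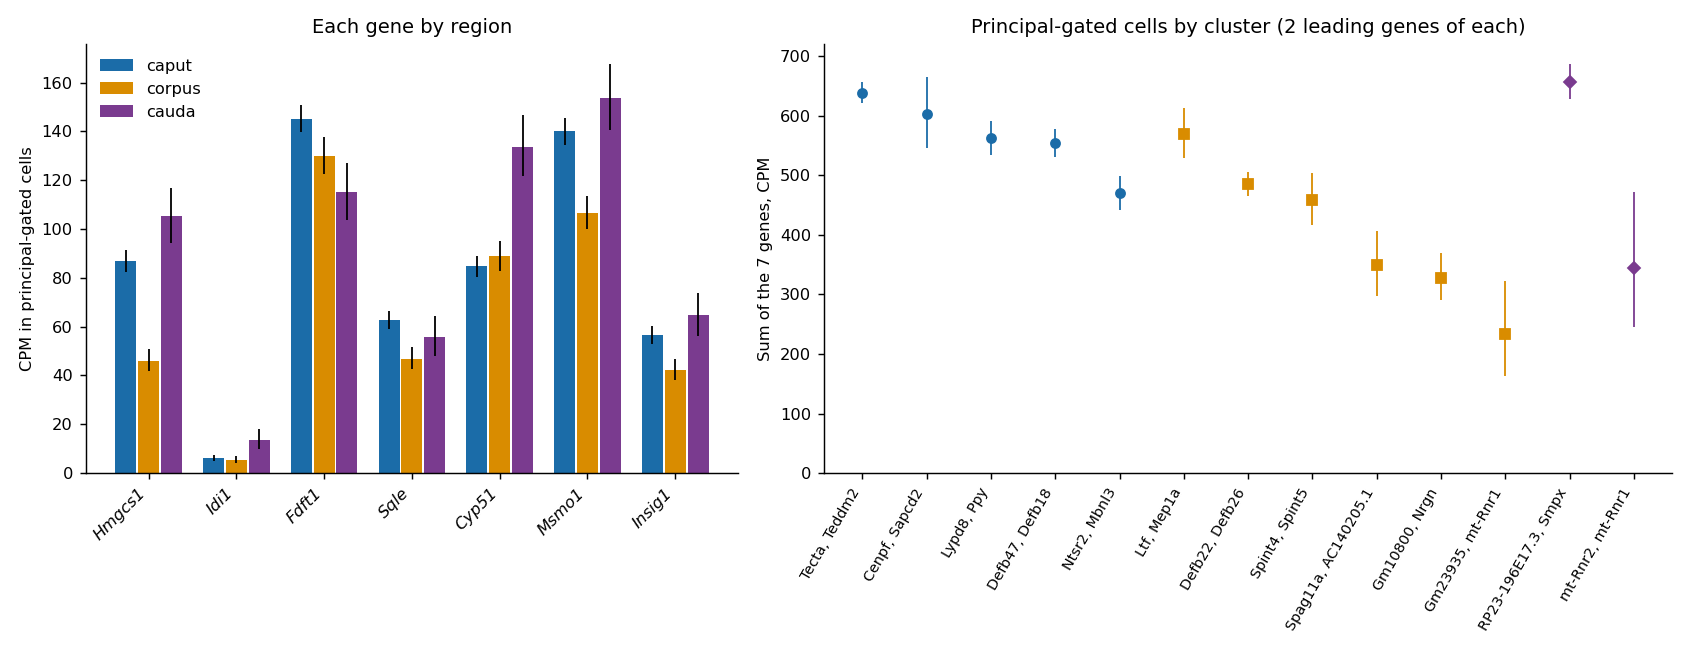
Left, level of each gene in principal cells of each region (bars from 0, CPM, with 95% intervals). Right, sum of the 7 genes in each cluster of principal cells (points, CPM, 95% intervals), named by 2 leading genes and coloured by region as on the left. Hmgcs1 and Msmo1 are lowest in the corpus and Cyp51 is highest in the cauda, and the clusters of 1 region span 469 to 638 CPM in the caput and 233 to 570 in the corpus.

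The genes outside the fixed lists whose level ran closest to the sum of the 7 were sought across the 25 combinations of region and gate with at least 50 cells. By Pearson's r of log2(CPM + 10) the first were Bola1 (0.90), Tmbim4 (0.90), Mdh1 (0.89), Igsf5 (0.88) and Cldn7 (0.88), out of 7547 genes compared. Of the lists of sterol genes, Nsdhl (0.88) and Lss (0.81) were among the nearest. Mylip (-0.33), Nr1h3 (-0.32) and Abca1 (-0.19) had the lowest values, all of them weak. The summed principal markers had an r of 0.66 over all points, and of 0.18 within the caput (9 points), 0.74 within the corpus (8) and 0.67 within the cauda (8). The points share 3 libraries and their depth, so these values are descriptions.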

How the data were processed

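Single-cell RNA libraries of the caput, corpus and cauda were made with the Singleron GEXSCOPE kit, and the deposited matrix holds UMI counts per gene and cell, whole numbers that the authors did not normalize. STAR 2.7.3a, UMI-tools and the build GRCm38.p6 are named in the submitters' processing notes, and the method that called cells was not given in the sources used here. Region was read from the column prefix.

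A cell entered a gate with at least 3 of the class's markers detected and a share of UMIs in them at least 3 times a reference share (the lower of the region's and the mean of the regions' shares), unless it met several gates or reached the region's own share of principal markers. Principal cells needed at least 0.5 of that share and no other class. Thresholds were set with the data in view. The members and lists were chosen with earlier results of these data known. CPM is the summed UMIs of a gate over all its UMIs, mitochondrial and globin RNA included, with exact Poisson intervals. Ratios have exact conditional binomial intervals and shares Clopper-Pearson intervals. All intervals are at 95% and for counting error only. No doublet caller was run. Clusters (Leiden, resolution 2, on 2000 variable genes and 30 components) were made without the sterol genes. Named genes were the 7 members, the fixed lists of 16 other pathway genes, 7 regulators, 5 efflux and esterification, 10 fatty acid and 8 digestion genes, and the 10 genes closest in pattern, and a gene of the pathway list is not reported here. Alternatives covered gates, clusters, filters, TMM and other scalings, cell means, thinning and the size rule. The size rule was tested on simulated counts. Tools were Python 3.11.15, numpy 2.4.6, scipy 1.17.1, scanpy 1.11.5, igraph 0.11.9, matplotlib 3.10.9, R 4.3.3 and edgeR 4.0.16 (TMM factors only).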

Additional observations from a re-analysis of the deposited data

Results flagged for a closer look

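Several genes moved one way between regions in principal or clear cells and the opposite way in other classes. With 1 library per region, the difference between classes was not tested. The direction was read from intervals that excluded 1 on opposite sides. Caput over cauda, Hmgcs1 was 0.825 in principal cells and 3.94 in macrophages. For Hmgcs1 the principal value turned to 1.09 as a mean over cells and 1.07 with cells thinned to 1000 UMIs. Cyp51 was 0.633 in principal cells, 3.65 in fibroblasts and 3.43 in macrophages. Corpus over cauda, Cyp51 was 0.665 in principal cells, 2.29 in fibroblasts and 2.83 in macrophages. Msmo1 over the same pair was 0.695 in principal cells and 1.70 in fibroblasts. Sqle, caput over cauda, was 0.625 in clear cells and 3.58 in macrophages, while in principal cells its interval covered 1 (1.12, 0.961 to 1.32).

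The 7 genes summed did the same. Caput over cauda, the sum was 0.907 in principal cells, 1.68 in basal cells, 2.65 in fibroblasts and 3.003 in macrophages. The principal value turned to 1.07 as a mean over cells and 1.11 with cells thinned to 1000 UMIs. Corpus over cauda, the sum was 0.727 in principal cells, 1.47 in fibroblasts and 1.496 in macrophages. Principal-marker RNA in these gates moved in the same direction, from 34.4% of the principal level in caput macrophages through 17.3% in the corpus to 5.68% in the cauda. In fibroblasts it went from 27.8% through 14.9% to 4.68%. Its part in these results was not tested.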

How the results depend on the processing

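The direction of the sum against principal cells was the same under every alternative that gave a value, in all 4 classes and 3 regions. Of 105 member ratios, 91 kept their direction under all alternatives, and of 165 ratios of 11 other named genes 145 did. Between regions, the exception was caput over cauda in principal cells, 0.907 with UMIs pooled, which reversed to 1.07 as a mean over cells and 1.11 with cells thinned. With TMM factors, the sum relative to principal cells was 0.422 (caput), 0.496 (corpus) and 0.386 (cauda) in clear cells, 0.250 (caput), 0.232 (corpus) and 0.122 (cauda) in basal cells, 0.209 (caput), 0.172 (corpus) and 0.0974 (cauda) in fibroblast cells and 0.353 (caput), 0.262 (corpus) and 0.128 (cauda) in macrophage cells. Between regions of principal cells it was 1.31 for caput over corpus and 0.976 for caput over cauda. With median-of-ratios size factors, the sum relative to principal cells was 0.474 (caput), 0.558 (corpus) and 0.423 (cauda) in clear cells, 0.280 (caput), 0.273 (corpus) and 0.136 (cauda) in basal cells, 0.0938 (cauda) in fibroblast cells and 0.131 (cauda) in macrophage cells. Across principal cells it was 0.823 for caput over cauda and 0.673 for corpus over cauda. With totals that left out the 100 most abundant genes, the sum relative to principal cells was 0.548 (caput) and 0.545 (cauda) in clear cells, 0.320 (caput) in basal cells, 0.0980 (cauda) in fibroblast cells and 0.129 (cauda) in macrophage cells. In principal cells it was 1.31 for caput over corpus. As a mean over cells, the sum relative to principal cells was 0.773 (cauda) in clear cells, 0.454 (corpus) in basal cells, 0.267 (caput), 0.282 (corpus) and 0.162 (cauda) in fibroblast cells and 0.413 (caput), 0.392 (corpus) and 0.234 (cauda) in macrophage cells. Principal cells gave 1.47 for caput over corpus and 1.07 for caput over cauda. With cells thinned to 1000 UMIs, the sum relative to principal cells was 0.840 (cauda) in clear cells, 0.620 (corpus) and 0.104 (cauda) in basal cells, 0.277 (corpus) and 0.164 (cauda) in fibroblast cells and 0.441 (caput), 0.441 (corpus) and 0.211 (cauda) in macrophage cells. For principal cells the values were 1.49 for caput over corpus and 1.11 for caput over cauda. With Leiden clusters in place of gates, the sum relative to principal cells was 0.789 (caput) in clear cells, 0.313 (corpus) in basal cells, 0.385 (caput), 0.325 (corpus) and 0.178 (cauda) in fibroblast cells and 0.674 (caput), 0.401 (corpus) and 0.196 (cauda) in macrophage cells. Region ratios in principal cells were 1.303 for caput over corpus and 0.997 for caput over cauda. Without cells over 20% mitochondrial UMIs, the sum relative to principal cells was 0.867 (corpus) in clear cells and 0.193 (corpus) and 0.0985 (cauda) in fibroblast cells. The principal-cell ratios were 1.18 for caput over corpus and 0.815 for caput over cauda. With no ceiling on principal markers (chosen after seeing the data), the sum relative to principal cells was 0.695 (caput) and 0.799 (cauda) in clear cells, 0.433 (caput), 0.510 (corpus) and 0.638 (cauda) in basal cells, 0.444 (caput) in fibroblast cells and 0.751 (caput) and 0.192 (cauda) in macrophage cells. With gated cells that also lay in a cluster of their gate (chosen after seeing the data), the sum relative to principal cells was 0.332 (caput) and 0.250 (corpus) in basal cells and 0.250 (caput) in fibroblast cells. Gates that asked for 4 markers gave no value for basal cells of the cauda, and the cause of these shifts was not tested. By the size rule across all genes, summed over comparisons, there were 53414 calls of at least 2-fold, 84793 with no minimum of UMIs and 77540 at a ratio of 1.5. A gene counts once in each comparison that called it. Over the 12 comparisons of a class with principal cells, 24280 calls were higher and 14065 lower with plain CPM, against 14265 and 25563 with TMM factors and 16539 and 20110 with median-of-ratios size factors. Depth limited Idi1, with at most 10 UMIs in any clear, basal, fibroblast or macrophage gate, and cauda basal cells, with 55 UMIs of the 7 genes in 58 cells. No paired analysis was possible because each region was 1 library.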

Other observations

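Fatty acid synthesis genes, many of which also answer to SREBP factors, were counted by the same 2-fold rule. In cauda macrophages 8 of the 9 with enough UMIs were at least 2-fold lower than in principal cells and 0 higher, against 16.7% and 30.7% of all genes, and in cauda fibroblasts 7 of 10 were lower and 1 higher, against 15.1% and 29.3%. In caput clear cells 3 of 10 were lower and 1 higher, against 10.8% and 21.7% of all genes. In caput basal cells 2 of 10 were lower and 1 higher, against 9.42% and 20.8%. In corpus basal cells 2 of 10 were lower and 2 higher, against 9.85% and 20.6%, and in caput ciliated cells 3 of 10 lower and 2 higher, against 6.58% and 27.5%. Elovl6, the elongase, was 409, 261 and 287 CPM in caput, corpus and cauda clear cells. In principal cells Elovl6 was 433, 103 and 106 CPM, so clear cells held 0.945 of the principal level in the caput, and 2.55 and 2.71 times it in corpus and cauda. Me1 was higher in fibroblasts than in principal cells in every region, at 12.5 against 2.19 CPM in the caput, 18.9 against 4.28 in the corpus and 18.5 against 2.10 in the cauda.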
